A study of Danio rerio with 12 samples.

Results

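Accessible chromatin on the long arm of zebrafish chromosome 4 is described here across 4 skeletal cell groups. Each peak called in a library is represented by its summit, the position where its signal is highest, and summits were joined into regions when they lay within 250 bp of each other. The regions described are those whose middle lies beyond 27 Mb on chromosome 4 of GRCz11. This border is a position and uses no measured value, but it was chosen with earlier results of these data known. The long-arm regions number 692 of 133213 regions in all, against 3736 on the rest of chromosome 4 and 123468 on the other 24 chromosomes. The remaining regions lie on sequences outside the 25 chromosomes.

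The long arm of this chromosome is known as a late-replicating, largely heterochromatic stretch of the zebrafish genome. It is rich in repeats, in tandem copies of small RNA genes and in large families of NLR immune receptor genes and zinc finger genes, and in wild strains its end carries sex-linked sequence. ATAC-seq reports open chromatin, because its transposase inserts adapters where DNA is not packed, so heterochromatin usually gives few peaks.

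All fish were wild type (WT) at 15 days post fertilisation, with entpd5a:Gal4FF;UAS:GFP as green reporter and R2col2a1a:mCherry as red reporter. Osteoblasts, the bone-forming cells, were sorted as GFP positive and mCherry negative, and chondrocytes, the cells of cartilage, as mCherry positive and GFP negative. Head and trunk were sampled for each type, and every group has 3 libraries labelled as biological replicates. Head osteoblasts are labelled classical and trunk osteoblasts non-classical. The green reporter is driven by entpd5a through Gal4FF and the red one by R2col2a1a. What a sorted cell is thus rests on these drivers, and the labelled cell types were not checked here against marker genes. The 12 lists held between 8407 and 79517 summits. Their mean length was 56181 in head osteoblasts and 59040 in head chondrocytes, against 36466 in trunk osteoblasts and 30338 in trunk chondrocytes. List length is thus partly confounded with location. Because list length differs within every group, libraries were compared on their strongest 8407 summits, ranked within each library by the authors' score, rank 1 being the strongest. No gene annotation or sequence of this build was used here, so regions are given by GRCz11 coordinates alone and not assigned to genes, exons or introns. An ATAC-seq peak shows no strand.

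The long arm was the emptiest stretch of the chromosomes at this scale. Over the 51.1 Mb from the border to the last summit of the chromosome, all lists together gave 13.6 regions per Mb. The rest of chromosome 4 gave 138 per Mb, the highest of all, and the other chromosomes together 97.5 per Mb. When chromosome 4 was split at the border and set among 26 stretches, the long arm had the lowest density in 12 of 12 libraries, with equal and with full lists. The next lowest, chromosome 6, held 79.9 regions per Mb, 5.90 times as many. The arm makes up 3.80% of the length of the 25 chromosomes and held 2335 of 546075 summits, or 0.428%. That total of summits, unlike the length, includes 18692 on sequences outside the 25 chromosomes.

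Each library showed this difference by itself. At 8407 summits, a library held between 15 and 42 long-arm regions, a median of 21.5, and between 0.294 and 0.822 regions per Mb. On the rest of chromosome 4 the same libraries held between 7.04 and 9.44 regions per Mb. The density of the arm differed by -4.05 ± 0.54 on the log2 scale from that of the rest of chromosome 4 (SD, n = 12 libraries, 0.5 regions added to each count) and differed by -3.68 ± 0.47 from that of the other chromosomes. Both differences had the same direction in 12 of 12 libraries, and the exact two-sided sign-flip permutation test over libraries gave p = 0.000488 for each, the smallest it can give (adjusted over 4 comparisons, 0.000977). With full lists the log2 differences were -3.58 ± 0.27 and -3.09 ± 0.21. The sources used here do not give how reads that map to several places were treated, and its part in this low density was not tested.

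**Figure D1:**
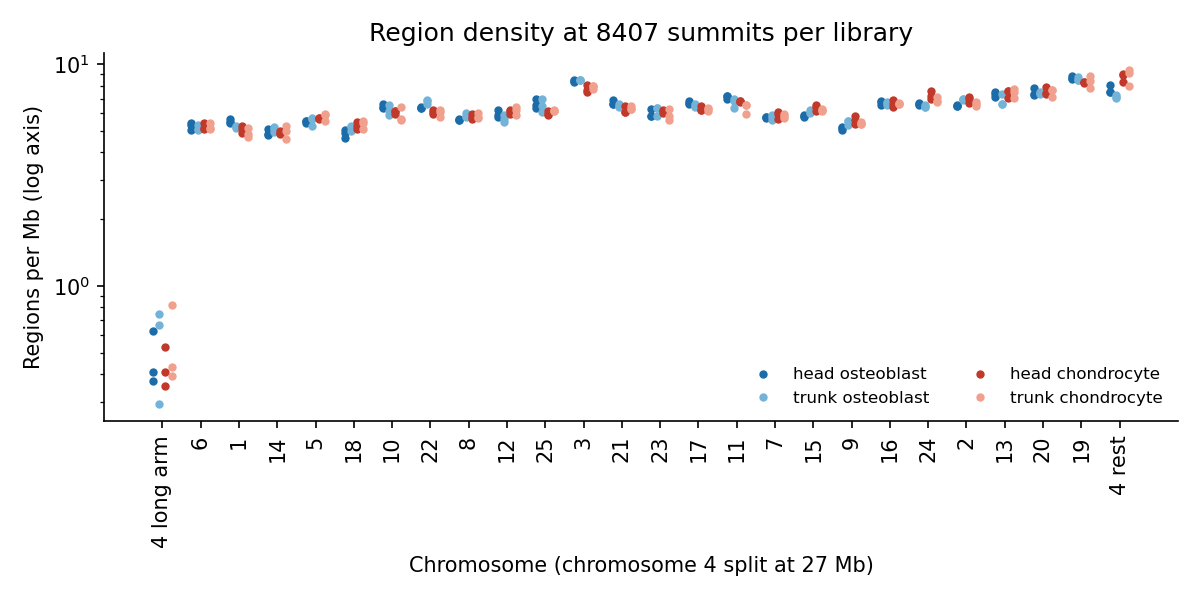
Regions per Mb on a log axis in each of the 12 libraries (points, coloured by group) at 8407 summits per library, for the 25 chromosomes with chromosome 4 split at 27 Mb, ordered by density over all full lists. The long arm lies between 0.294 and 0.822 regions per Mb in every library, below all other stretches.

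Within the arm the regions lay near its ends. The first 4 Mb beyond the border held 150 regions (37.5 per Mb), the following 40 Mb held 200 (5 per Mb), and the remaining 7.06 Mb to the last summit held 342 (48.4 per Mb). These limits, at 31 and 71 Mb, were drawn after the counts per 1 Mb were seen and carry no test. The middle stretch is thus 78.3% of the arm's length and 28.9% of its regions. Of 51 whole 1 Mb bins on the arm, 37 (72.5%) held fewer than 10 regions, against 0 of 27 on the rest of chromosome 4 and 10 of 1258 (0.795%) on the other chromosomes. The bin with most regions, from 28 to 29 Mb, held 81, which is under the median of 96 for bins of other chromosomes.

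The longest stretches with no region in any list lay in the middle of the arm. They ran from 44577754 to 46769192 (2.19 Mb), from 53285489 to 54660164 (1.37 Mb) and from 65210951 to 66529879 (1.32 Mb). Of the 10 longest such stretches on all chromosomes, 8 were on the long arm, and the longest elsewhere, on chromosome 11, measured 0.911 Mb. Of the arm's 511 windows of 100 kb, 309 (60.5%) held no region, against 7.04% on the rest of chromosome 4 and 10.7% on other chromosomes. Where regions did occur they were spaced by a median of 10610 bp from middle to middle, against 3740 bp on the rest of the chromosome and 5146 bp elsewhere.

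**Figure D2:**
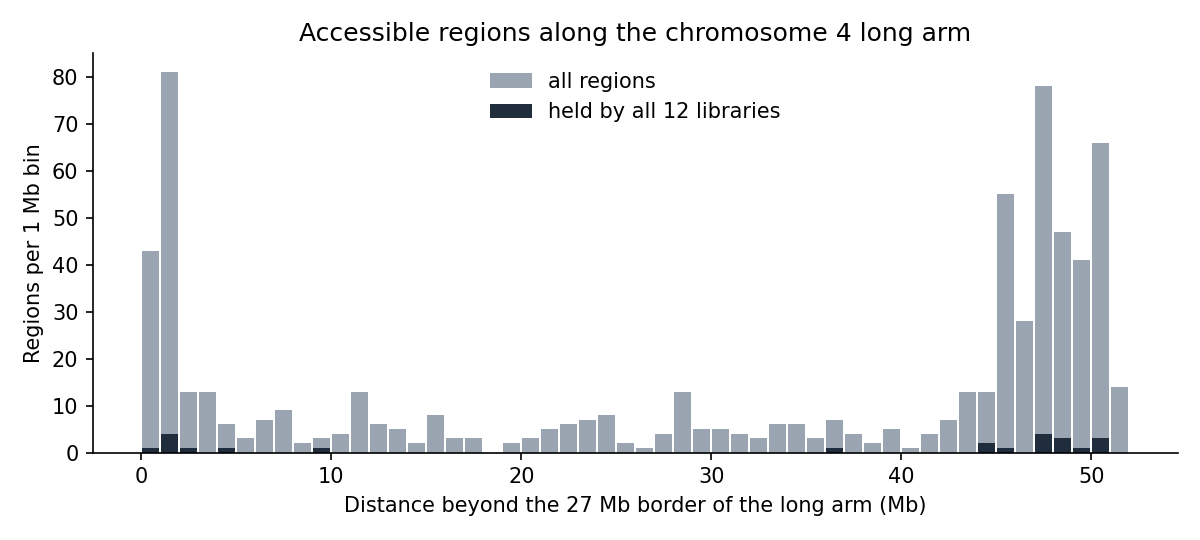
Regions per 1 Mb bin from all 12 full lists, by distance beyond the 27 Mb border (the last bin is cut at the last summit). Grey bars count all 692 regions and dark bars the 23 held by every library, and both gather in the first 4 Mb and beyond 44 Mb.

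Some windows at the ends of the arm were crowded. The window from 77900001 to 78000000 held 25 regions, and only 4.29% of the 100 kb windows with any region held as many. Osteoblasts held 7, 14 and 11 of them in the head libraries 1 to 3 and 5, 9 and 15 in the trunk, and chondrocytes held 17, 16 and 11 in the head and 9, 11 and 5 in the trunk. The window from 28500001 to 28600000 held 21 regions, 4 of them in all 12 libraries. Osteoblasts held 11, 11 and 11 in the head and 10, 11 and 8 in the trunk, and chondrocytes 10, 12 and 15 in the head and 7, 9 and 6 in the trunk. In this second window all trunk chondrocyte counts lay below all head chondrocyte and all head osteoblast counts, and the library with the shortest list had the lowest. These counts come from full lists of unequal length, and how many other windows show such an order was not counted. With list length as covariate, head and trunk chondrocytes did not differ detectably in this window (limma adjusted p = 0.839). The next windows in order were 28300001 to 28400000 with 16 regions, 74900001 to 75000000 with 14 and 75100001 to 75200000 with 14. The regions nearest to the border, at 26998378 on the near side and 27007848 beyond it, were single summits of 1 library each.

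Long-arm regions were shared by fewer libraries than regions elsewhere when full lists were used. A single library held 296 of the 692 (42.8%), between 2 and 5 libraries held 257 (37.1%), between 6 and 11 held 116 (16.8%), and all 12 held 23 (3.32%). On the rest of chromosome 4 a single library held 30.9% and all 12 held 3.27%, and on other chromosomes 32.2% and 4.06%. Every library contributed regions of its own, from 4 of 42 in trunk chondrocyte replicate 3 (9.52%) to 51 of 256 in head chondrocyte replicate 3 (19.9%). As a share of a library's long-arm regions the lowest was 6.70%, in trunk chondrocyte replicate 2. The share of regions held by 1 library was 52.0% in the middle stretch, 38.0% in the first 4 Mb and 39.5% in the distal stretch.

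The share of a library's long-arm regions that another library of its group also held was 67.4 ± 15.5% with full lists, against 80.4 ± 20.6% for its regions on the rest of chromosome 4 (SD, n = 12). It was lower on the arm in 12 of 12 libraries, by 13.0 ± 8.7 percentage points (exact sign-flip permutation p = 0.000488, adjusted over 4 comparisons 0.000488). At 8407 summits the difference was -2.62 ± 16.25 points (exact p = 0.591, adjusted 0.591), lower in 5 and higher in 7 libraries. The difference in sharing was therefore not seen among the strongest summits.

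**Figure D3:**
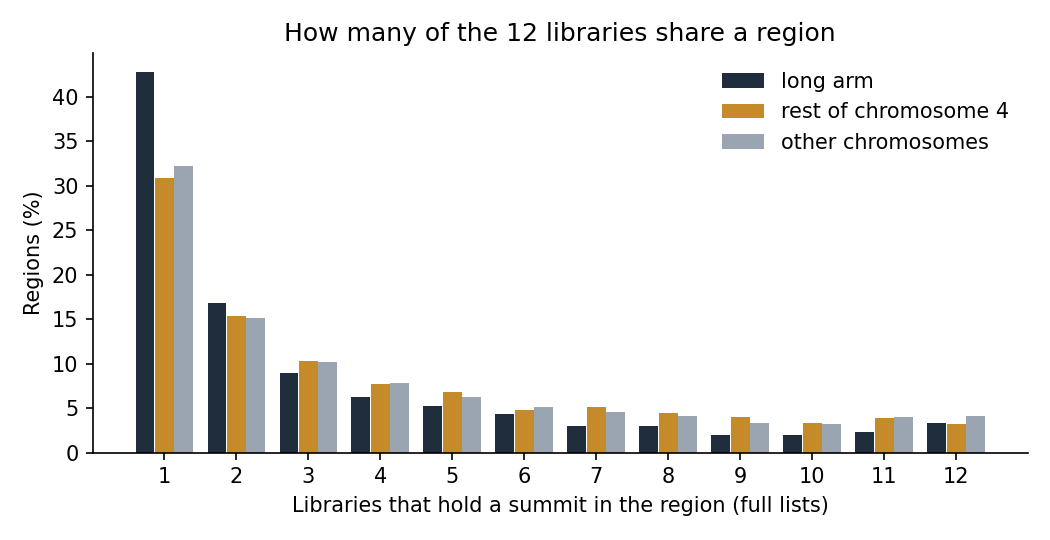
Percent of regions (vertical axis) by the number of the 12 full lists that hold a summit in them (horizontal axis), for the long arm, the rest of chromosome 4 and the other chromosomes. The long-arm bar is the tallest at 1 library, 42.8%, and falls near the others at 12 libraries.

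The place of long-arm summits in the ranked lists depended on how much of the list was used. With full lists their median rank percentile (0 strongest, 100 weakest) was between 55.6 and 69.9 in the 12 libraries, and that of the rest of chromosome 4 between 47.1 and 54.1. The arm's summits lay lower in the list in 12 of 12 libraries, by 12.9 ± 6.6 percentile points (SD, exact sign-flip permutation p = 0.000488, adjusted 0.000488). Among the strongest 8407 summits the difference was -6.28 ± 11.11 points, toward stronger ranks, and did not pass the test (exact p = 0.0771, adjusted 0.103, 6 libraries lower and 6 higher). Without trunk chondrocyte replicate 3 it was -7.50 (exact p = 0.0469, unadjusted). Leaving out any other single library gave an unadjusted exact p between 0.0547 and 0.154. In every full list the median long-arm summit thus lay in the weaker part of the list, and a few long-arm summits were among the strongest of a library. The strongest 500 summits of each library held between 1 and 3 long-arm summits, a mean of 0.417%. That is near the arm's mean share of full lists, 0.449%.

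The long-arm summits among the strongest 500 lay in 71962242 to 71962270, 72723504 to 72723603 and 63365220 to 63365222, each held by all 12 libraries. The 23 long-arm regions held by all libraries were not all strong. Their median mean rank percentile was 22.1, against 13.3 for such regions on the rest of chromosome 4 and 13.0 on other chromosomes. A mean below 5 was reached by 6 of the 23 (26.1%), against 21.3% and 19.7%. The strongest of the 23 by mean rank percentile was chromosome 4, 71962242 to 71962270. Its ranks in osteoblasts were 363, 414 and 298 in the head and 159, 496 and 439 in the trunk, and in chondrocytes 452, 282 and 507 in the head and 402, 718 and 98 in the trunk. The groups overlapped, and all ranks stood within the first 718 of lists of up to 79517. Close in strength was 72723504 to 72723603. Osteoblasts ranked it 266, 665 and 409 in the head and 146, 464 and 405 in the trunk, and chondrocytes 1036, 405 and 1461 in the head and 250, 327 and 126 in the trunk. The head chondrocyte libraries 1 and 3 gave it the weakest ranks.

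A further set of strong shared regions lay in the distal stretch. Region 75293269 to 75293291 ranked 1853, 1232 and 1461 in osteoblasts of the head, 892, 1090 and 1016 in those of the trunk, 1391, 948 and 1722 in chondrocytes of the head, and 2170, 1796 and 1317 in those of the trunk. Every trunk osteoblast rank was stronger than every head osteoblast and every trunk chondrocyte rank, while head chondrocytes overlapped with all other groups. This order was read off after the ranks were seen. How many other shared regions show such an order between groups was not counted, so it is not a trait of trunk osteoblasts. Regions 75121618 to 75121634, 74929261 to 74929294 and 74943075 to 74943112 ranked between 701 and 2722, 699 and 3046, and 827 and 2492. Region 76575495 to 76575547 was weaker, with ranks between 1718 and 5923. All of these were in the strongest 8407 summits of every library.

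The third strongest region by mean rank percentile behaved differently. Region 63365220 to 63365222, whose 12 summits lay within 3 bp, is 1 of 3 regions of the middle stretch held by all 12 libraries. It ranked 14 in head osteoblast replicate 1 but 4005 and 2879 in replicates 2 and 3. Its ranks in trunk osteoblasts were 6, 8 and 1519. Chondrocytes gave it 14844, 2193 and 300 in the head and 8, 1895 and 25 in the trunk. The 5 libraries that placed it in their first 25 summits are the 5 with the shortest lists, between 8407 and 28911 summits. They come from 3 of the groups, and all but head osteoblast replicate 1 are trunk libraries. The next shortest list, of 46446 summits, gave it rank 300 and the longest gave it rank 14844.

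Several other shared regions of the arm followed list length in the same way. To remove the effect of list length on rank itself, each library's ranks were taken again among the 5283 regions held by all 12 libraries. The Spearman coefficient between that place and list length over the 12 libraries, given as a description, was above 0.7 for 7 of the 23 long-arm regions (30.4%), between 0.79 and 0.94. The same held for 1.64% of the 122 such regions on the rest of chromosome 4 and for 2.60% of the 5008 on other chromosomes. All 7 lay among the 9 shared regions before 71 Mb and none among the 14 beyond it, where the coefficients ran from -0.37 to 0.66. Besides 63365220 to 63365222 they were 4 regions of the window from 28500001 to 28600000 (28559841 to 28559966, 28566147 to 28566189, 28569450 to 28569916 and 28594735 to 28594757), 31347956 to 31348318 and 36251217 to 36251970. Region 28569450 to 28569916, for example, ranked 2915, 16731 and 23259 in osteoblasts of the head and 875, 2304 and 18389 in those of the trunk. In chondrocytes it ranked 38465, 11658 and 8830 in the head and 6014, 15024 and 1171 in the trunk. These full-list ranks can reach higher numbers in longer lists. Its places among the 5283 shared regions were 2390, 4954 and 5159 in head osteoblasts and 852, 2062 and 5092 in trunk osteoblasts. In chondrocytes they were 5207, 4719 and 4515 in the head and 3655, 5035 and 1089 in the trunk. In all 7 regions the 5 shortest lists gave stronger places than the longer lists of their own group. The 7 were chosen by their relation with list length, so this order adds no separate evidence.

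**Figure D4:**
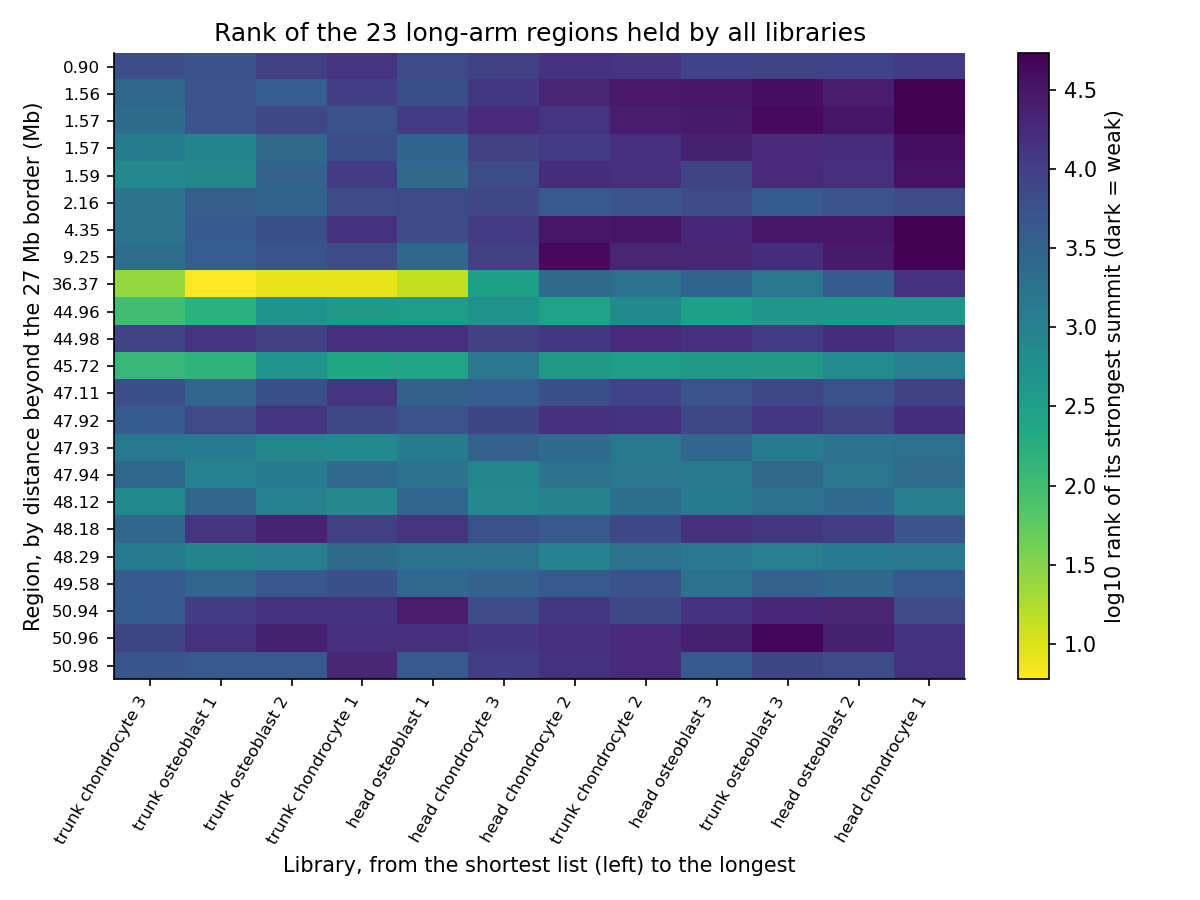
Rank (log10 colour scale, bright for strong) of the 23 long-arm regions held by all 12 libraries, in rows by distance beyond the 27 Mb border and in columns by library from the shortest to the longest list. The row at 36.37 Mb and the rows near 1.6 Mb darken from left to right, while most rows beyond 44 Mb keep a similar colour. Ranks are those of the full lists and can reach higher numbers in longer lists.

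The same order appeared in the total. Among the strongest 8407 summits, osteoblasts held 33, 19 and 21 on the long arm in the head and 39, 35 and 15 in the trunk. Chondrocytes held 18, 21 and 27 in the head and 22, 20 and 43 in the trunk. In all 4 groups the shortest list held the most and the longest list the fewest. Over the 12 libraries Pearson's r between this share and log2 list length was -0.91 (permutation test, 100000 resamples, p = 0.00024, adjusted over 8 coefficients 0.00096). Spearman's rho was -0.95 (permutation p = 2e-05, the smallest these resamples can give, adjusted 0.00016). Without the 2 libraries farthest from the median list length r was -0.81 (10 libraries). The widest step in list length separates 5 lists of up to 28911 summits from 7 of at least 46446, and within the 7 longest r was -0.69 (exact permutation p = 0.071) and rho -0.83 (exact p = 0.03), neither past 0.05 after adjustment (0.13 and 0.08). The 3 libraries described with lost files all belong to the 5 shortest, and r in the other 9 was -0.96. For the rest of chromosome 4 r was 0.27 (permutation p = 0.4, adjusted 0.4) and rho 0.32 (p = 0.31, adjusted 0.35), and for other chromosomes 0.55 (p = 0.08, adjusted 0.13) and 0.40 (p = 0.2, adjusted 0.27). The cut at 8407 took all of the shortest list but only the top of the longest, of 79517 summits. In that longest list, head chondrocyte replicate 1, the arm's share was 0.214% at the cut and 0.384% in full. Long-arm summits lay low in full lists (median rank percentile 62.3 on average, against 49.4 on the rest of chromosome 4). With full lists, where no cut is made, the arm's share was 0.511%, 0.569%, 0.460%, 0.413% and 0.481% in the 5 shortest. It was 0.564%, 0.428%, 0.418%, 0.3575%, 0.396%, 0.408% and 0.384% in the 7 longest, both sets ordered from shorter to longer lists. How much of the relation comes from the depth of the cut was not tested. The relation with list length was noticed in these data before it was tested.

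The extra summits of short lists lay in the first 44 Mb of the arm. There the 5 shortest lists held between 9 and 26 of their strongest 8407 summits and the 7 longest between 3 and 5, with no overlap. Beyond 71 Mb both sets overlapped, with 13 to 22 and 12 to 22. What set list length was not tested, and cell number, transposition, sequencing depth and file loss cannot be told apart here.

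**Figure D5:**
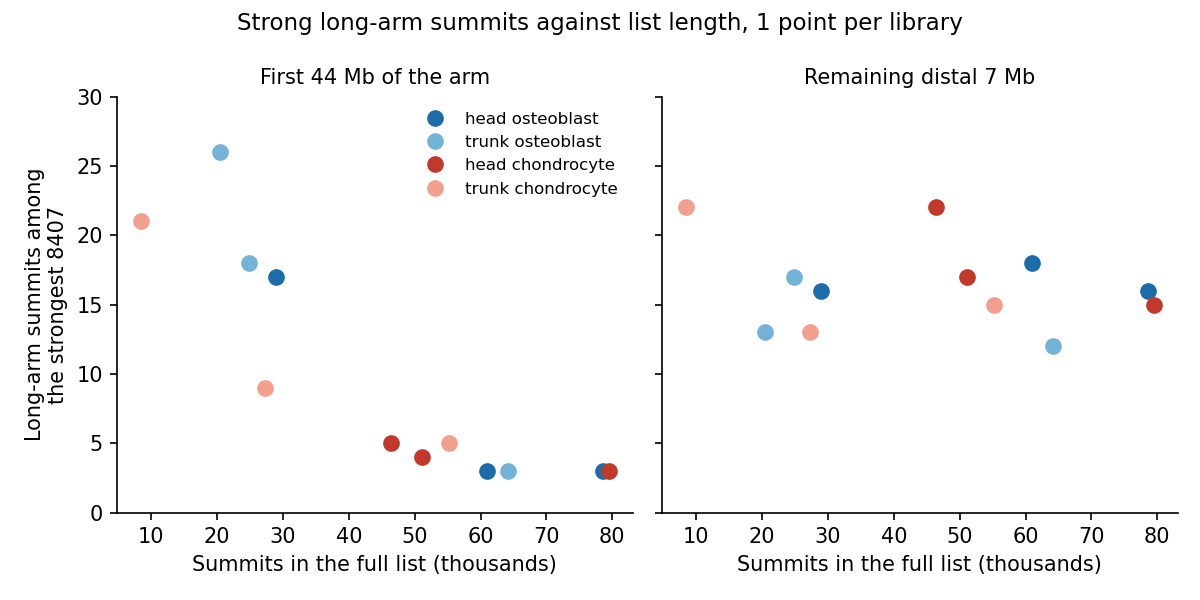
Long-arm summits among the strongest 8407 of each library (vertical axis) against the number of summits in its full list (horizontal axis), 1 point per library, coloured by group. In the first 44 Mb of the arm the 5 shortest lists hold 9 to 26 and the others 3 to 5, and in the distal stretch the counts range from 12 to 22 with no such split.

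The 4 groups did not differ detectably in how much of their list fell on the long arm. The share of the strongest 8407 summits was 0.289 ± 0.090% for osteoblasts of the head, 0.353 ± 0.153% for those of the trunk, 0.262 ± 0.055% for chondrocytes of the head and 0.337 ± 0.152% for those of the trunk (SD, n = 3 each). Osteoblasts exceeded chondrocytes by 0.0218 percentage points (exact two-sided permutation p = 0.751, n = 6 against 6), and the head lay below the trunk by a difference of -0.0694 points (exact permutation p = 0.307). Of the other 4 pairs, head against trunk osteoblasts gave -0.0634, head osteoblasts against head chondrocytes 0.0278, trunk osteoblasts against trunk chondrocytes 0.0159 and head against trunk chondrocytes -0.0753 points. Their exact permutation p lay between 0.6 and 1, where 3 against 3 libraries cannot go below 0.10. Adjusted over the 6 comparisons all p were 0.901 or above. No difference passed the test, and inside each group the share fell as list length rose. With full lists the shares were 0.415 ± 0.062%, 0.475 ± 0.088%, 0.459 ± 0.094% and 0.448 ± 0.055% in the same order of groups.

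Libraries of one group shared long-arm regions somewhat more than libraries of different groups. The Jaccard index of a pair of libraries is the number of regions both hold over the number either holds. Its mean at 8407 summits was 0.530 within and 0.434 between groups over the 71 long-arm regions then held. The excess of 0.0957 gave an exact one-sided permutation p of 0.029 over 15400 partitions of the libraries. On the rest of chromosome 4 the excess was 0.209 and on other chromosomes 0.189 (exact p = 6.49e-05 each, the smallest possible). On the arm 4 of 12 libraries were most similar to one of their own group, against 11 of 12 for each of the other stretches. Those stretches held 552 and 18213 regions at this cut, against 71 on the arm. The part of this smaller number in the difference was not tested. With full lists the excess was 0.0330 on the arm (exact one-sided permutation p = 0.0912), 0.0689 on the rest of chromosome 4 and 0.0661 on other chromosomes (exact p = 0.0262 and 0.0291), and 4, 7 and 6 of 12 libraries were closest to their own group. On the arm at 8407 summits, head chondrocytes were the most alike, at 0.698. They were also the most alike on the rest of chromosome 4 (0.711) and on other chromosomes (0.718). None of the 5 shortest lists is theirs. On the arm, head osteoblasts were then as close to trunk osteoblasts (0.542) as to each other (0.543). With full lists head chondrocytes were again the most alike, at 0.398 on the arm, 0.557 on the rest of chromosome 4 and 0.540 on other chromosomes. Head osteoblasts were on the arm closer to each other (0.350) than to trunk osteoblasts (0.315). The arm's excess at 8407 summits did not pass the test without replicate 2 or 3 of head osteoblasts or any replicate of head chondrocytes. It was then 0.0860, 0.0805, 0.0594, 0.0577 and 0.0767, with exact permutation p between 0.0562 and 0.117.

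A region was counted for a group when at least 2 of its 3 libraries held it at 8407 summits. Of 42 long-arm regions counted for some group, 12 (28.6%) were counted for all 4, against 30.2% of such regions overall. Both chondrocyte groups and no osteoblast group had 6 (14.3% against 12.9%), and both osteoblast groups alone had 3 (7.14% against 9.68%). Trunk osteoblasts alone had 9 (21.4% against 7.52%). All 9 lay in the first 44 Mb and rested on replicates 1 and 2, which have short lists, with none in replicate 3.

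Few long-arm regions separated 2 groups completely, that is, were held by every library of one and no library of the other, each library cut to the shortest list compared. Between head and trunk osteoblasts, at 20380 summits, 2 of 170 long-arm regions did so (1.18%), against 5.87% over all regions, and both were head-only, as were 3.03% of all regions (2.84% were trunk-only). Head osteoblasts and head chondrocytes, at 28911 summits, were separated by 9 of 214 (4.21%, against 17.0% over all regions), 4 osteoblast-only (7.60% of all regions were) and 5 chondrocyte-only (9.45% were). In the trunk, at 8407 summits, 3 of 67 (4.48%, against 12.9% on either side) were chondrocyte-only, as were 7.46% of all regions, and none osteoblast-only (5.47% of all regions were). No region of 54 separated head from trunk chondrocytes, where 4.40% of all regions did, 2.46% head-only and 1.93% trunk-only. Across both locations 3 of 71 (4.23%, against 5.70% on either side) were held by all 6 chondrocyte and no osteoblast libraries, as were 3.95% of all regions, and none the other way (1.75% of all regions were). These comparisons share libraries, and no test was made of the arm's share against the whole. Leaving out 1 library raised the head and trunk osteoblast count to 9 without trunk osteoblast replicate 3, 7 without head osteoblast replicate 3 and 5 without head osteoblast replicate 1 or trunk osteoblast replicate 2, which is 3.21% to 5.29% of the arm's regions against 7.98% to 10.7% of all regions. The head count became 17 without head osteoblast replicate 1 (11.04%, against 23.3% of all regions) and 15 without replicate 3 (7.21%, against 21.3%). The trunk count became 9, 6 and 5 without trunk osteoblast replicate 3, trunk chondrocyte replicate 1 and trunk chondrocyte replicate 3 (13.4%, 9.09% and 9.26%, against 16.8%, 15.5% and 20.4% of all regions). Between head and trunk chondrocytes it became 4, 2 and 1 without trunk chondrocyte replicate 2, head chondrocyte replicate 1 and head chondrocyte replicate 3 (7.69%, 3.70% and 1.92%, against 7.64%, 6.60% and 6.29%). Across both locations it became 5 without trunk chondrocyte replicate 1 (7.04%, against 6.16%). With fewer libraries to agree, such counts can only stay or rise.

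At equal lists 3 long-arm regions were held by all chondrocyte and no osteoblast libraries. Region 27785585 to 27785687 ranked 1509, 1693 and 4111 in head chondrocytes and 1846, 2771 and 5526 in trunk chondrocytes. In the full lists of head osteoblasts it ranked 12094, 16142 and 33471, and of the trunk osteoblast libraries replicate 3 alone held it, at 39162. Region 77486075 to 77486143 ranked 2806, 2890 and 3449 in head and 1999, 3266 and 5765 in trunk chondrocytes, with ranks of 46138 and 28890 in head osteoblasts 2 and 3 and no summit in replicate 1 or in trunk osteoblasts. Region 75116326 to 75116380 ranked 4471, 4277 and 6457 in head and 7577, 4701 and 7155 in trunk chondrocytes, and a single osteoblast library, head replicate 2, held it at rank 43131. In each of the 3, all chondrocyte ranks were stronger than all osteoblast ranks, which is how they were chosen. The longest list, head chondrocyte replicate 1, ranked all 3 within its first 4471 summits.

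Among regions that separated the osteoblasts or the chondrocytes of the head from another group, 76704331 to 76704403 ranked 9686, 7144 and 5107 in head osteoblasts, was in 1 trunk osteoblast full list and was in no chondrocyte list. Region 76605755 to 76605847 ranked 11298, 6510 and 4489 in head osteoblasts and was also in 2 trunk osteoblast and 1 head chondrocyte full lists. Region 77802286 to 77802378 ranked 15490, 19848 and 13453 and was in 1 trunk osteoblast and 1 head chondrocyte full list. On the head chondrocyte side, 75027861 to 75027915 ranked 7761, 6223 and 10615 and was in 1 head osteoblast and 1 trunk chondrocyte full list. Region 74182299 to 74182377 ranked 14371, 26722 and 10742 and was in no full list of the other 3 groups. All of these named regions lay beyond 71 Mb. Weaker regions also separated head osteoblasts from head chondrocytes. Of these, 28362078 to 28362180 (osteoblast-only) and 28003594 to 28003619 (chondrocyte-only) lay before 71 Mb. Region 74869348 to 74869461 (chondrocyte-only) lay beyond it.

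Counts of regions per 100 kb window were then compared in a limma model of all 12 libraries with list length as covariate, where 65 long-arm windows (12.7% of the arm's windows) reached a mean of 1 region per library. Between all osteoblasts and all chondrocytes 4 of these 65 changed (6.15%, against 9.50% of 9407 windows of the genome), 3 with more regions in chondrocytes (5.17% of all windows had) and 1 with more in osteoblasts (4.34% had). The window from 77400001 to 77500000, which holds the region at 77486075, had 1, 3 and 2 regions in osteoblasts of the head and 0, 0 and 2 in those of the trunk. Chondrocytes had 5, 4 and 4 in the head and 2, 4 and 1 in the trunk. The log2 difference, osteoblasts minus chondrocytes, was -1.43 ± 0.30 (SE, limma adjusted p = 0.00921). Window 72700001 to 72800000 held 1 or 2 regions in osteoblasts and 1 to 5 in chondrocytes (-1.17 ± 0.31, limma adjusted p = 0.0262). Window 75100001 to 75200000 held 2 to 8 and 4 to 13 (-0.63 ± 0.17, limma adjusted p = 0.0313). Window 76600001 to 76700000 was higher in osteoblasts, with 1 to 7 against 0 to 4 (1.19 ± 0.34, limma adjusted p = 0.0373). Raw counts of both cell types overlapped in all 4 windows. The count of 4 became 1 when either head osteoblast replicate 3 or head chondrocyte replicate 2 was left out (1.54%, against 5.75% and 4.05% of all windows), and 2 without head chondrocyte replicate 1 or 3 or trunk chondrocyte replicate 1 or 2 (3.08%, against 5.10% to 8.19%). A replicate block by peak name left 1 (1.54%, against 5.58%).

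In the trunk the window at 77400001 to 77500000 was the only one of the 65 to change between cell types (1.54%, against 3.38% over all windows, 1.90% lower and 1.48% higher in osteoblasts), with a log2 difference of -1.95 ± 0.43 (limma adjusted p = 0.023). At an unadjusted p below 0.05 there were 12 of 65 in limma, against 19.7% of all windows. The count of windows past the adjusted threshold was 0 without trunk osteoblast replicate 1 or 2 or trunk chondrocyte replicate 1, and 2 without head osteoblast replicate 1 or trunk chondrocyte replicate 2, while 0.595% to 0.904% and 3.46% to 3.78% of all windows were called. Without trunk chondrocyte replicate 3 it was 1 (against 3.06% of all windows). The window then called had more regions in osteoblasts, opposite in direction to the window at 77400001 to 77500000. With the block by peak name the count was 0, against 1.58% of all windows. In limma, 0 long-arm windows changed between head and trunk osteoblasts or between head and trunk chondrocytes, as in 0% of all windows, or between head osteoblasts and head chondrocytes, where 0.393% of all windows did. At an unadjusted p below 0.05 the long-arm counts were 1 of 65 (8.37% of all windows), 4 (4.99%) and 7 (15.3%) in that order. The smallest p of the head comparison of cell types fell on 28300001 to 28400000, with 4, 10 and 4 regions in osteoblasts and 6, 0 and 1 in chondrocytes (2.04 ± 0.66, limma adjusted p = 0.162). For head against trunk osteoblasts it fell on 74100001 to 74200000 (-0.83 ± 0.31, limma adjusted p = 0.48), and for chondrocytes on 28500001 to 28600000 (0.68 ± 0.22, limma adjusted p = 0.839). No long-arm window showed a cell-type difference that differed between head and trunk (0 of 65, 0% of all windows, and 6 of 65 at an unadjusted p below 0.05 in limma against 6.76% of all windows).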

How the data were processed

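The 12 ATAC-seq libraries were grouped by sample title. The submitters' processing notes name Bowtie2, MACS2, SAMtools, bedtools, deepTools and fastp with danRer11. Their versions and settings are not stated in the labels. The authors deposited 1 MACS2 summit list per library, called per library. Each deposited score is a −log10 value of the peak caller, of p-values or of q-values, and the sources used here do not say which. Per the labels' protocols enzyme amount and transposition time followed cell number, and 3 libraries lost files. In 7 lists the number in the peak names differs from that of the title, which was used. Read depth is unknown, so presence and rank within a list were used alone, and absence from a list does not mean closed chromatin.

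Sequence names are RefSeq names of GRCz11, and positions count from 1. Each stretch of genome was measured to its last summit. Equal lists were the strongest 8407 summits, a number kept when libraries were left out. Single values were tested by exact permutation over libraries, and windows of 100 kb with limma 3.58.1 in R 4.3.3 (trended, robust) on log2(regions + 0.5) with group means and log2 list length, keeping windows whose mean per library reached 1 region, Benjamini-Hochberg adjusted at 0.05. Other statistics used Python 3.11.15 with scipy 1.17.1. Procedures were tested on simulated data.

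The members, border, lists and tests were chosen with earlier results of these data known. Named regions were the 8 strongest of those held by most libraries, the 3 strongest separating regions per contrast and direction, the 5 fullest windows, the 3 longest empty stretches, the windows with the smallest p and the regions at the border. Other regions shared by all libraries were named after their ranks were seen. Planned work on genes, promoters and marker genes is not analysed here, because the annotation used was not of this build. Replicates are labelled biological, and p-values measure the spread between these libraries.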

Additional observations from a re-analysis of the deposited data

Results flagged for a closer look

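In 20 sets of 6 libraries (5 measures, by cell type and by location), 1 end value stood apart from the rest of its set by Dixon's criterion, where chance flags about 1 in 20 sets. Trunk chondrocyte replicate 3 had 0.511% of its strongest 8407 summits on the long arm, far above the next highest chondrocyte library at 0.321%. That library has the shortest list, so all of its summits entered.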

How the results depend on the processing

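The low density of the arm kept its direction and passed the exact permutation test in every alternative run. Leaving out 1 library gave log2 differences of -4.12 to -3.99 against the rest of chromosome 4 and -3.75 to -3.62 against other chromosomes. Results that turned or moved are given below, with the cause not tested. Of 166 alternatives beyond single left-out libraries, over 22 results, 122 kept direction and side of the threshold or stayed within 1.5 times the count.

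Differences in the long-arm share were small and turned easily, and none passed an exact permutation test. Osteoblasts minus chondrocytes became -0.00795 with full lists, -0.0139 with the border at 35 Mb, -0.0393 without libraries with file loss and -0.0377 without the 5 shortest lists (chosen after seeing the data). The last setting turned head minus trunk to 0.0440. The border at 35 Mb gave 0.00793 for head minus trunk osteoblasts and -0.0278 for trunk osteoblasts minus chondrocytes. The latter was -0.0773 without file loss. Head osteoblasts minus chondrocytes became -0.0431 with full lists, -0.0106 with 6305 summits per library, and -0.0238 without file loss and without the 5 shortest lists. Head minus trunk chondrocytes was 0.0110 with full lists. Single left-out libraries gave -0.00674 to 0.0642 for cell type, -0.103 to -0.0361 for location, -0.151 to -0.00793 and -0.125 to 0.0119 for location in osteoblasts and chondrocytes, and -0.0238 to 0.0595 and -0.0397 to 0.103 for cell type in head and trunk.

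The rank difference was 12.9 with full lists and -8.52 with 6305 summits (exact permutation p = 0.00146). It was -9.07 with scores of at least 5 (exact p = 0.00488) and -11.9 with the border at 35 Mb (exact p = 0.00928). The score setting again cut libraries to the shortest list left, of 6674 summits, so it amounts to a shorter cut, close to that at 6305. With 1 library left out it was -7.50 to -4.75 (exact p between 0.0469 and 0.154). The sharing difference was -13.0 with full lists, 1.16 with the border at 35 Mb, 3.59 without the 5 shortest lists and -3.92 to 0.0766 with 1 library left out. The excess of similarity within groups was 0.0330 with full lists (exact permutation p = 0.0912), 0.0612 with 6305 summits (exact p = 0.0767) and 0.0577 to 0.138 with 1 library left out. It was larger without file loss, 0.150 (exact p = 0.0191), and without the 5 shortest lists, 0.172 (exact p = 0.0333).

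Separating regions with full lists numbered 5 (head against trunk osteoblasts), 19 (head cell types), 6 (trunk cell types), 15 (head against trunk chondrocytes) and 0 (all osteoblasts against all chondrocytes), or 1.00%, 3.24%, 1.47%, 3.02% and 0% of the arm's regions against 1.41%, 5.79%, 1.55%, 3.37% and 0.209% of all regions. Without file loss they numbered 7 between osteoblasts, 17 between head cell types, 7 between trunk cell types and 5 between all cells, or 6.80%, 11.04%, 11.7% and 7.81% against 13.5%, 23.3%, 20.3% and 8.002%. Without the 5 shortest lists the head cell types gave 17 (11.04%, against 23.3%) and all cells 6 (17.1%, against 14.5%). Head against trunk osteoblasts gave 1 with scores of at least 5 (0.794%, against 6.11%) and 0 at 8407 summits (0%, against 5.41%), and head against trunk chondrocytes gave 1 with joining at 100 bp (1.72%, against 4.27%). Single left-out libraries gave 3 to 9, 9 to 17, 3 to 9, 0 to 4 and 3 to 5.

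Long-arm windows called for all cells numbered 1 on the strongest summits without covariate (9.09%, against 24.3% of all windows), 1 with a mean of at least 3 regions (10% of 10 windows, against 12.7%), 2 without file loss (3.08%, against 3.65%) and 1 to 6 with 1 library left out. In the trunk they numbered 0 with a mean of at least 3 regions (6.42% of all windows), 0 without file loss (0% of all windows) and 0 to 2 with 1 library left out. On the strongest summits without covariate the head cell types gave 1 (9.09%, against 15.7%). Whether replicate numbers pair the libraries was not tested. Deviations of same-numbered libraries correlated above 0.1 in 4 of 18 pairs by title (r from -0.28 to 0.23). By peak name they did so in 2 of 13 (r from -0.25 to 0.23). A replicate block by title left the counts of long-arm windows called as they were, with 4 for all cells and 1 in the trunk. Over all windows it called 876 and 348, against 894 and 318 without it. With this block, share differences such as 0.0218 did not pass the exact permutation test (adjusted p = 1, against 0.901 without the block). A block by peak name gave 1 and 0 (1.54% and 0% of the arm's windows, against 5.58% and 1.58% of all windows). Read depth is unknown, so a region missing from a short list cannot be told apart from one too weak to be called there.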
